A study of Homo sapiens with 8 samples.

Results

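The comparison described here is that of MM1.S cells kept with MS177N1 against MM1.S cells kept with the solvent DMSO. It comprises 4 of the 8 libraries of the series, 2 per group, and every one of the 16295 listed genes, of which 14164 had enough reads to be tested. The libraries were chosen by their labels alone, and no measured value entered the choice. All 4 groups of the series are the same human multiple myeloma cell line, grown in RPMI1640 with serum and collected after 24 h. By the labels the groups differ in what was added: DMSO, or 0.5 uM of MS177N1, of C24 or of MS177. The labels do not say whether the replicates of a group came from separate cultures, so the p-values below measure only the spread between these libraries, which may be technical.

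EZH2 is the catalytic subunit of Polycomb repressive complex 2 (PRC2), which methylates lysine 27 of histone H3 and keeps developmental genes silent. From background knowledge, C24 is an inhibitor that binds EZH2. MS177 joins that inhibitor to a ligand of CRBN, the substrate receptor of a ubiquitin ligase, so that EZH2 and the proteins bound to it are tagged and degraded. MS177N1 is a related control compound that does not degrade EZH2, and the labels do not give how it differs in structure. A control of this kind is run to separate responses that need degradation from those that follow from the presence of a similar molecule. MM1.S cells are malignant plasma cells, which depend on IRF4 and MYC and secrete immunoglobulin. The labels give 1 dose and 1 time for each compound, so nothing is known here of a dose response.

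Reads assigned to listed genes numbered between 20000665 and 26619099 per library, with 20662196 and 23526036 in DMSO and 21426342 and 24813228 in MS177N1. Levels are normalized reads, that is reads divided by the library's size factor, and differences are log2 fold changes of normalized reads plus 1. The cells carried the plasma cell markers of their label. SDC1, the syndecan CD138, stood at 28444 and 29160 normalized reads in DMSO and 27073 and 26919 in MS177N1. TNFRSF17, the receptor BCMA, stood at 4075 and 4218 in DMSO and 4171 and 4104 in MS177N1, and IGJ, the joining chain of secreted immunoglobulin, at 80811 and 79845 in DMSO and 85077 and 83995 in MS177N1. Of the markers of other cell types, 2 of 6 for B cells, 2 of 8 for T and NK cells, 3 of 8 for myeloid cells, 1 of 5 for erythroid cells and 4 of 8 for stromal and epithelial cells had enough reads to be tested, and none passed the test. Their summed levels in DMSO and MS177N1 were 776 to 809 and 752 to 798 normalized reads for B cells. The sums were 76.0 to 109 and 79.1 to 92.3 for T and NK cells, 293 to 368 and 296 to 325 for myeloid cells, and 7.70 to 9.61 and 5.25 to 25.5 for erythroid cells. The B cell sum was nearly all CD79B, the myeloid sum nearly all CD68, and the stromal sum nearly all VIM, at 6574 and 6531 in DMSO and 6026 and 5683 in MS177N1, a filament protein that cells of many types express.

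After 24 h with MS177N1 few genes could be told from DMSO. In a limma fit over all 4 groups with Benjamini-Hochberg adjustment, 5 of 14164 genes passed an adjusted p of 0.05, which is 0.0353% of the genes tested. All 5 were lower with MS177N1 and none was higher. They were AMIGO3, a membrane protein gene with few reads, and 4 genes of the mitochondrial genome, MT-CYB, MT-CO1, MT-ND4 and MT-CO2. An unadjusted p under 0.05 was reached by 718 genes, which is 5.07%, with 308 higher (2.17%) and 410 lower (2.89%). By the same fit MS177 differed from DMSO at 8207 genes (57.9%), and C24 at 13 (0.0918%); the 3 comparisons share the DMSO libraries. Tested directly against MS177, MS177N1 differed at 8131 genes (57.4%), with 4054 higher (28.6%) and 4077 lower (28.8%). That even balance depends on the scaling, with 3426 higher and 4675 lower when libraries were scaled by total reads, and 3422 and 4677 by reads outside the mitochondrial genome. The plot of fold change against read level shows the 4 mitochondrial genes at the right, among the most abundant transcripts, and AMIGO3 alone at the left. The number of calls moved with single libraries. It was 0 without DMSO replicate 2 or without C24 replicate 2, 1 without C24 replicate 1, and 19 and 18 without MS177 replicate 1 or 2. Leaving out DMSO replicate 1 gave 4, and their balance turned, with 3 higher and 1 lower. Leaving out MS177N1 replicate 1 gave 4 lower, and leaving out MS177N1 replicate 2 gave 1 higher and 3 lower. With only the 4 libraries compared in the fit it was 17, of which 15 were lower.

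**Figure D1:**
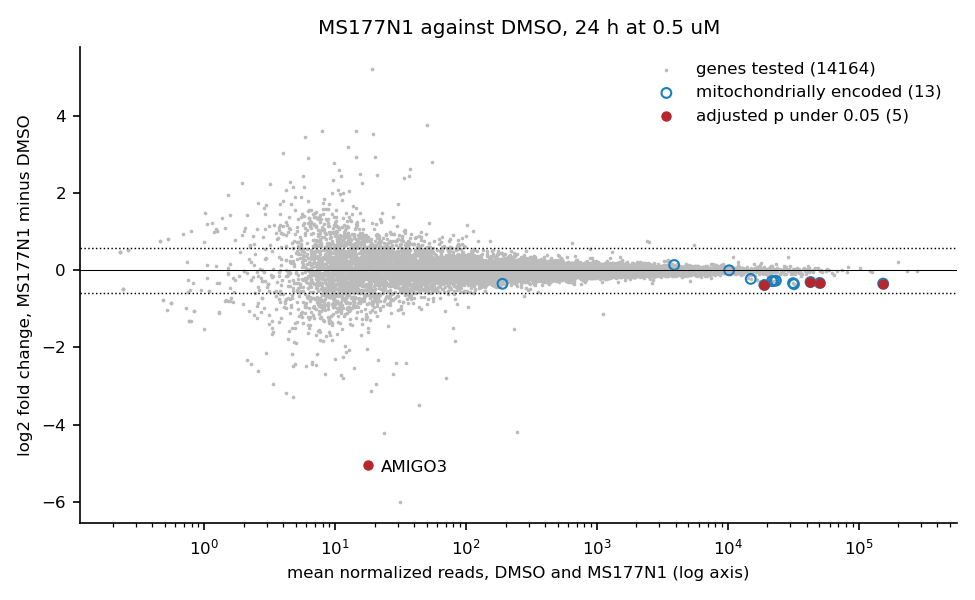
Each point is a gene tested, with its mean normalized reads in DMSO and MS177N1 on a log axis and its log2 fold change, MS177N1 minus DMSO; dotted lines mark a 1.5-fold difference. The 5 genes with an adjusted p under 0.05 are filled in red, 4 of them mitochondrially encoded, and the spread of the other genes narrows as reads increase.

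The mitochondrial genome encodes 13 proteins, all subunits of the respiratory chain complexes or of ATP synthase, together with the ribosomal RNAs of the mitochondrial ribosome. Nearly all of these genes lie on one strand and are transcribed as long precursors that are then cut into single RNAs. With MS177N1, 4 of the 13 mRNAs fell, and the median of the 13 was 1.23-fold lower than in DMSO. MT-CO1, the catalytic core of cytochrome c oxidase, stood at 169650 and 174850 normalized reads in DMSO and at 134100 and 137170 in MS177N1. Both MS177N1 libraries lay below both DMSO libraries, and the gap was several times the distance between replicates. The log2 fold change was -0.34 (SE 0.049), a fall of 1.27-fold, with an adjusted p of 0.0373 in limma. MT-CO2, a second core subunit of that oxidase, stood at 47812 and 46908 in DMSO and 37057 and 39700 in MS177N1, a log2 fold change of -0.30 (SE 0.039, limma adjusted p = 0.00768). MT-ND4 belongs to NADH dehydrogenase, or complex I. Its levels were 58166 and 54031 in DMSO and 44118 and 45259 in MS177N1, again without overlap, and its log2 fold change was -0.33 (SE 0.046, limma adjusted p = 0.0198). MT-CYB is cytochrome b of complex III. It went from 21228 and 21795 to 16339 and 16701 and had the largest fall of the 4, at -0.38 (SE 0.057, limma adjusted p = 0.0356). In bulk samples such as these, less RNA per cell and fewer cells that carry it cannot be told apart.

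The other 9 mitochondrial mRNAs did not pass the test. The log2 fold changes of MT-ND1, MT-ND2, MT-ND5 and MT-ATP6 were -0.27, -0.28, -0.36 and -0.28, with limma adjusted p-values of 0.0696, 0.0511, 0.0511 and 0.0511, just past the threshold. MT-CO3 had -0.33 and MT-ND6, the one mRNA made from the opposite strand, -0.22; both had an adjusted p of 0.965. For MT-ND3, MT-ND4L and MT-ATP8 the libraries of the 2 groups overlapped, and the log2 fold changes were -0.00, 0.14 and -0.35. In all, 12 of the 13 fold changes were negative and 10 of 13 had both MS177N1 libraries below both DMSO libraries, which 18.7% of all genes tested had. The median over the 13 was -0.30, beside -0.002 over all genes tested. The 13 mRNAs made up 2.08 ± 0.0227% (SD, n = 2) of all reads in DMSO and 1.69 ± 0.0599% (SD, n = 2) in MS177N1. With 2 libraries against 2 an exact two-sided permutation test cannot give a p below 0.333, and the share was lower in 2 of 2 MS177N1 libraries. The ribosomal RNAs had log2 fold changes of -0.28 for MT-RNR1 and -0.37 for MT-RNR2, with limma adjusted p-values of 0.5 and 0.64.

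The other compounds had lower mitochondrial levels than DMSO too, as the plot of mitochondrial transcripts by library shows. Against DMSO, C24 had a median of -0.47 over the 13 mRNAs with 9 called lower, beside 0.0918% of all genes called either way. MS177 had a median of -0.51 with 10 called lower, beside 57.9% of all genes called either way. These comparisons share the DMSO libraries with that of MS177N1. Tested directly at the same dose and time, none of the 13 passed the limma test between MS177N1 and C24. The median difference was 0.18, higher in MS177N1, with a smallest adjusted p of 0.193. The interval for MT-CO1 ran from 0.08 to 0.29 on the log2 scale, wholly on the side of a higher level in MS177N1. Such intervals are not adjusted for the number of genes tested, and MT-CO1 did not pass (limma adjusted p = 0.997). Of the 13 differences between MS177N1 and C24, 1 was negative. Against MS177, 6 of the 13 were higher in MS177N1, beside 28.6% of all genes tested. The 6 were MT-ND2, MT-CO2, MT-ATP6, MT-ND4, MT-ND5 and MT-ND6. For MT-ATP6, a subunit of ATP synthase, the levels were 18736 and 20553 in MS177N1 and 14227 and 14745 in MS177, a log2 difference of 0.44 (limma adjusted p = 9.14e-07). The ribosomal RNAs went the other way, and MT-RNR2 was lower in MS177N1 than in MS177, with a log2 difference of -0.61 (limma adjusted p = 0.000191).

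**Figure D2:**
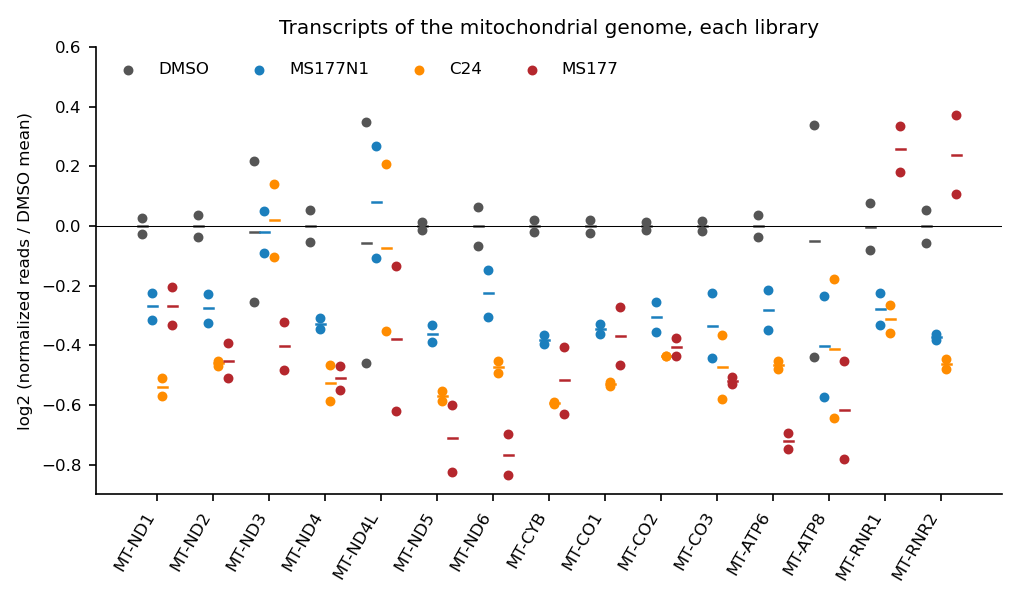
Points are single libraries and short bars group means, as log2 of normalized reads over the DMSO mean, for the 13 mRNAs and 2 ribosomal RNAs of the mitochondrial genome. In MS177N1 both libraries lie under both DMSO libraries for 10 of the 13 mRNAs, and MT-ND3, MT-ND4L and MT-ATP8 overlap.

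None of the nuclear genes for mitochondria passed the test. Of 75 nuclear subunits of oxidative phosphorylation, 44 factors of mitochondrial transcription, RNA processing and DNA upkeep, and 78 mitochondrial ribosomal proteins, the medians were -0.00, -0.02 and -0.03. For 68, 43 and 78 of them the 95% interval lay inside a 1.5-fold difference from DMSO, beside 70.1% of all genes tested. PPARGC1A, a coactivator of mitochondrial biogenesis, had the largest value of the second list, at 322 and 346 in DMSO and 401 and 422 in MS177N1 (log2 fold change 0.30, limma adjusted p = 0.965). Nuclear copies of mitochondrial sequence can take reads from the mitochondrial genes. One such copy, RP5-857K21.6, went from 3076 and 2726 to 2323 and 2325 (-0.32, adjusted p = 0.493, limma), so the split of reads between copies is uncertain. Without DMSO replicate 1, DMSO replicate 2, MS177N1 replicate 1 or either C24 library, none of the 4 passed, and without MS177N1 replicate 2 only MT-CO2 did. Their log2 fold changes in these fits lay between -0.40 and -0.25, and their adjusted p-values between 0.0466, that of MT-CO2 without MS177N1 replicate 2, and 0.408. When libraries were scaled by total reads, or by reads outside the mitochondrial genome, MT-CO2 and MT-ND4 passed and MT-CO1 and MT-CYB did not. MT-CO1 also missed with no filter on low genes (adjusted p = 0.0508) and with voom weights (0.169). With only the groups compared all 4 passed, at limma adjusted p-values from 8.24e-06 to 0.000328. All 4 also passed with the replicate number as a block, from 0.00149 to 0.00679 (limma). Whether RNA quality or library preparation has a part in these levels was not tested.

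AMIGO3, which encodes a membrane protein of the AMIGO adhesion family, was read 18 and 54 times in the DMSO replicates and 0 times in both MS177N1 libraries. Its normalized reads were 19.8 and 51.9 in DMSO, 22.3 and 25.4 in C24 and 76.1 and 26.2 in MS177, so the 2 MS177N1 libraries were the only ones of the 8 without a read. With 3 reads per library as the floor, the level in MS177N1 was at least 12.2-fold below the DMSO mean (limma adjusted p = 0.00512). It was at least 8.12-fold below the C24 mean (limma adjusted p = 0.00767). The DMSO mean joins unlike replicates, at 19.8 and 51.9. In the GENCODE 29 annotation AMIGO3 overlaps GMPPB on the same strand and RNF123 on the opposite strand, so the assignment of its reads is uncertain. GMPPB, a guanylyltransferase of sugar metabolism, stood at 1560 and 1502 in DMSO and 1506 and 1585 in MS177N1, a log2 fold change of 0.01 with a 95% interval of -0.13 to 0.15. The call against DMSO was lost without DMSO replicate 2 (adjusted p = 0.130) and without C24 replicate 2 (0.0502), on the deposited log2 values (0.154) and with voom weights (0.550). RP11-512M8.5, named after its values were seen, also had no read in MS177N1, against 64.9 and 60.6 normalized reads in DMSO, 65.9 and 67.5 in C24 and 192 and 7.48 in MS177. It was at least 21.4-fold below the DMSO mean and did not pass (limma adjusted p = 0.965).

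Against C24 at the same dose and time, MS177N1 differed at 2 of 14164 genes (0.0141%), and both were lower in MS177N1. One was AMIGO3 and the other DDIT4, an inhibitor of mTORC1 signalling that stress induces and a target of ATF4. DDIT4 stood at 2589 and 2528 normalized reads in DMSO, 2879 and 2940 in MS177N1, 3968 and 4181 in C24 and 12185 and 11333 in MS177. The 4 groups did not overlap. DDIT4 was 1.4-fold lower in MS177N1 than in C24, a log2 difference of -0.49 (SE 0.052, limma adjusted p = 0.00136). The difference from DMSO was 0.19 with an interval of 0.08 to 0.30 and did not pass (adjusted p = 0.965). BHLHE40, a transcriptional repressor of the circadian clock and of hypoxia responses, was picked out after its values were seen, for the same order of groups. It stood at 546 and 492 in DMSO, 634 and 673 in MS177N1, 763 and 784 in C24 and 1320 and 1297 in MS177. MS177N1 passed the test against neither DMSO (0.33, limma adjusted p = 0.5) nor C24 (-0.24, limma adjusted p = 0.997). Unadjusted, 634 genes (4.48%) had a p under 0.05 between MS177N1 and C24. Leaving out either C24 library left 0 calls, leaving out MS177 replicate 1 or 2 gave 13 and 11, and leaving out MS177N1 replicate 1 gave 1. The fit of the 4 libraries compared gave 28, of which 20 were higher in MS177N1.

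A gene that misses the test is not thereby shown to be level, so the genes were also sorted by how tightly their level was bounded. For 9935 of 14164 genes (70.1%) the whole 95% interval of the difference between MS177N1 and DMSO lay inside 1.5-fold either way, and for 11475 (81%) inside 2-fold. The share depended on reads, as the plot of bounded genes by read level shows. Among genes with at least 1000 reads on average, 4686 of 4714 (99.4%) lay inside 1.5-fold, and among those with 200 to 1000 reads 4187 of 4272 (98.0%) did. With 50 to 200 reads 1059 of 2053 (51.6%) did, with 20 to 50 reads 3 of 1223 (0.245%), and with fewer than 20 none of 1902. For genes read fewer than 50 times, a 1.5-fold difference could thus mostly not be excluded at this depth. Counts of bounded genes in the lists are to be read beside these shares, and a high count does not set a list apart. Such a bound is not a limit of detection, and no gene with 20 to 1000 reads was called. The tightest bounds around no difference belonged to ITGB7, PBXIP1, PARP1, RPL13A and NPM1. ITGB7, an integrin of lymphoid cells, stood at 230670 and 236210 in DMSO and 231180 and 233450 in MS177N1, with an interval of -0.06 to 0.05. PARP1, a DNA damage sensor, stood at 31463 and 31999 in DMSO and 31535 and 31929 in MS177N1 with an interval of -0.07 to 0.07, and at 17395 and 17442 in MS177. NPM1, nucleophosmin, stood at 27208 and 26914 in DMSO, 27088 and 26993 in MS177N1 and 20115 and 20438 in MS177.

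**Figure D3:**
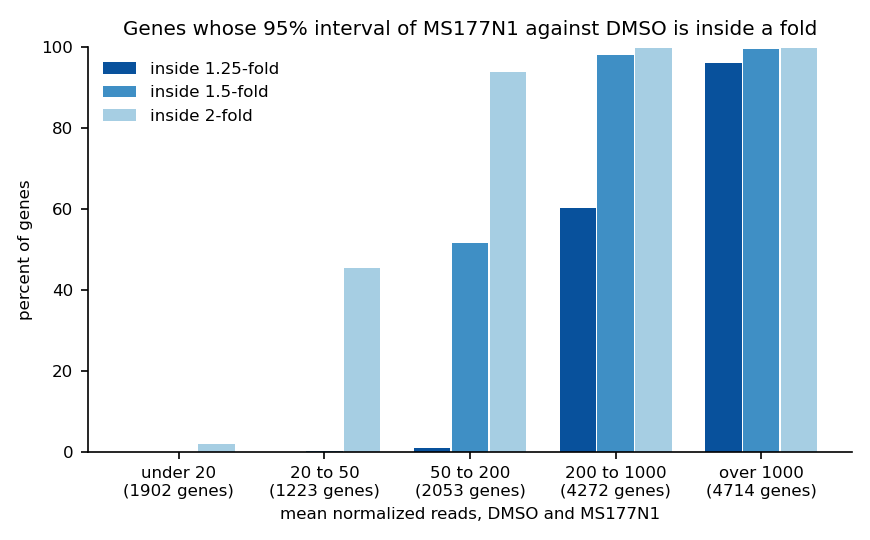
Bars give the percent of genes whose 95% interval of the log2 fold change, MS177N1 minus DMSO, lies inside each of the folds named in the legend, by mean normalized reads. At least 98.0% of genes with 200 or more reads are inside 1.5-fold, against 0.245% of those with 20 to 50.

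Over 11183 genes with at least 50 normalized reads on average, the log2 difference between an MS177N1 and a DMSO library had an SD of 0.201 to 0.242. The SD was 0.228 between the DMSO replicates and 0.196 between the MS177N1 replicates, so a library of one group was about as far from the other group as from its own replicate. From MS177N1 to C24 the SD was 0.196 to 0.217, and from MS177N1 to MS177 it was 0.722 to 0.741.

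The transcripts of EZH2 and its partners were bounded close to DMSO. EZH2 stood at 2676 and 2687 normalized reads in DMSO, 2720 and 2723 in MS177N1, 2713 and 2665 in C24 and 2819 and 2881 in MS177. The log2 fold change of MS177N1 against DMSO was 0.02, with an interval of -0.09 to 0.13. Transcript counts carry no information on EZH2 protein, so they check neither that a degrader worked nor that its control did not. SUZ12, the scaffold of PRC2, stood at 4206 and 4217 in DMSO and 4066 and 4308 in MS177N1 (-0.12 to 0.10). EED, which binds the methylated histone, stood at 805 and 763 in DMSO and 739.6 and 785 in MS177N1 (-0.21 to 0.13). EZH1, the other methyltransferase of the family, stood at 554 and 599.9 in DMSO and 583 and 624 in MS177N1 (-0.12 to 0.25). All 13 tested subunits had intervals inside 1.5-fold, beside 70.1% of all genes tested and at least 98.0% of those with 200 or more reads. None of the 13 reached an unadjusted p under 0.05, beside 5.07% of all genes tested. Against MS177, 7 of the 13 were higher in MS177N1 and 3 lower, beside 28.6% and 28.8% of all genes tested. EED was 0.53 higher on the log2 scale and EZH1 had a difference of -0.77 (limma adjusted p = 3.65e-05 and 1.71e-06).

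No tested gene on the lists of PRC2 targets was called. Of 62 developmental Polycomb targets, such as the HOX genes, 24 were listed and 16 had enough reads to be tested. Their median log2 fold change was -0.15, and only 6 of 16 were bounded within 1.5-fold, beside 70.1% of all genes tested. None had an unadjusted p under 0.05, beside 5.07% of all genes tested. HOXA10, which had the largest value, was read at 13.2 and 18.3 in DMSO and 13.6 and 3.64 in MS177N1, too few for a statement. Of 26 tested genes described as repressed by EZH2, none reached an unadjusted p under 0.05, again beside 5.07%. Of the 26, 20 were bounded within 1.5-fold, again beside 70.1%. The median was 0.05. In MS177N1 against MS177, 4 of the 16 were called higher and 3 lower, and 6 of the 26 higher and 10 lower, beside 28.6% higher and 28.8% lower of all genes tested. Neither share of higher genes lay above that of all genes. For lower genes, the share of the 26 lay above that of all genes and the share of the 16 below it. The median differences from MS177 were 0.003 for the 16 and -0.16 for the 26.

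The receptor that MS177 recruits and the proteins that CRBN drugs destroy were not called either. CRBN stood at 409 and 456 in DMSO and 408 and 439 in MS177N1 (-0.24 to 0.18), and at 624 and 643 in MS177. IKZF1, a lymphoid transcription factor degraded under CRBN drugs, stood at 2930 and 2927 in DMSO and 2945 and 3037 in MS177N1 (-0.08 to 0.14). For IKZF3, its relative, the levels were 3317 and 3772 in DMSO and 3914 and 4019 in MS177N1, a log2 fold change of 0.17 whose unadjusted p was 0.019 and adjusted p 0.965 in limma. Of 31 tested genes for the CRBN ligase and its drug-induced substrates, 29 were bounded within 1.5-fold, beside 70.1% of all genes tested. None of the 31 was called. Only IKZF3 and ZNF827 had an unadjusted p under 0.05, which 5.07% of all genes tested had.

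Most genes of plasma cell identity were bounded close to DMSO. IRF4, the transcription factor on which myeloma cells depend, stood at 16460 and 17070 in DMSO, 17761 and 17484 in MS177N1 and 13812 and 14119 in MS177. Its interval against DMSO was -0.01 to 0.16, and it was higher in MS177N1 than in MS177 by 0.34 (limma adjusted p = 2.61e-06). PRDM1, which drives plasma cell differentiation, stood at 6079 and 6251 in DMSO and 6555 and 6429 in MS177N1 (-0.04 to 0.19), and XBP1, which builds the secretory apparatus, at 31974 and 31433 in DMSO and 30209 and 29168 in MS177N1 (-0.17 to -0.02). SDC1 differed from DMSO by -0.09 (adjusted p = 0.965, limma) but from MS177 by 1.12, where it stood at 12569 and 12278. Of 40 tested genes of plasma cell identity, 37 were bounded within 1.5-fold of DMSO, beside 70.1% of all genes tested. None of the 40 was called. Against MS177, 21 of the 40 were higher in MS177N1 and 13 lower, beside 28.6% and 28.8% of all genes tested.

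MYC and its targets separated MS177N1 from MS177 and not from DMSO. MYC stood at 15202 and 14228 in DMSO, 13674 and 13538 in MS177N1, 14215 and 13874 in C24 and 8086 and 7568 in MS177. Both MS177N1 libraries lay below both DMSO libraries, but the log2 fold change of -0.11 did not pass (unadjusted p = 0.029, adjusted p = 0.965, limma) and its interval of -0.21 to -0.01 excludes a fall of 1.5-fold. Against MS177 the difference was 0.80 (limma adjusted p = 9.67e-10). Of 70 MYC targets, 68 were bounded within 1.5-fold of DMSO, beside 70.1% of all genes tested, and the median was -0.01. Against MS177, 66 were called higher in MS177N1 and none lower, beside 28.6% and 28.8% of all genes tested. Among 64 genes of G1/S and DNA replication 62 were bounded against DMSO, again beside 70.1%, and 56 called higher than in MS177, beside 28.6%. Among 67 genes of G2/M and mitosis 67 were bounded, beside 70.1%, and 51 called higher than in MS177, beside 28.6%. MKI67, the proliferation antigen, stood at 10278 and 11790 in DMSO, 12721 and 12668 in MS177N1 and 7283 and 8484 in MS177.

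ATF4 is the transcription factor of the integrated stress response, and it switches on amino acid synthesis, transport and tRNA charging. Its targets separated MS177N1 from MS177 in the other direction. Of 49 tested ATF4 targets, 45 were lower in MS177N1 than in MS177 and 1 higher, beside 28.8% and 28.6% of all genes tested. ATF3, a stress-induced repressor, stood at 701 and 679.7 in DMSO, 648 and 713 in MS177N1 and 12976 and 12536 in MS177, and DDIT3, the proapoptotic factor CHOP, at 166 and 171 in DMSO, 157 and 186 in MS177N1 and 2950 and 2702 in MS177. CHAC1, which degrades glutathione, stood at 243 and 216 in DMSO, 266 and 273 in MS177N1 and 2028 and 1783 in MS177. The MS177N1 and DMSO libraries overlapped for ATF3 and DDIT3 and did not for CHAC1.

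Against DMSO no ATF4 target was called. Even so, 37 of 49 fold changes were negative, beside 50.8% of all genes tested, with a median of -0.06. With C24 the median against the same DMSO libraries was -0.04. Both MS177N1 libraries lay below both DMSO libraries for 19 of the 49, beside 18.7% of all genes, and 12 of 49 were lower at an unadjusted p under 0.05, beside 2.89%. PSAT1, an enzyme of serine synthesis, had 3027 and 2826 normalized reads in DMSO, 2477 and 2460 in MS177N1 and 6708 and 7006 in MS177. Its log2 fold change of -0.24 against DMSO had an unadjusted p of 0.00032 and an adjusted p of 0.4 in limma. ASNS, asparagine synthetase, stood at 2037 and 2078 in DMSO and 1839 and 1794 in MS177N1 (-0.18), and SLC1A5, a glutamine transporter, at 16333 and 17246 in DMSO and 15171 and 15322 in MS177N1 (-0.14). GARS, a glycyl-tRNA synthetase, stood at 4615 and 4869 in DMSO and 4222 and 4213 in MS177N1 (-0.17). The intervals of these 4 genes all lay inside 1.5-fold. The other 8 with such a p were PSPH, SESN2, MTHFD2, JDP2, SLC7A11, PHGDH, PCK2 and SLC7A5. DDIT4, WARS and CHAC1 had positive values at an unadjusted p under 0.05, at 0.19, 0.16 and 0.23. The count of 12 was 6 without DMSO replicate 2 and 5 without MS177N1 replicate 1.

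ATF4 binds, with a C/EBP partner, a composite element whose core can be written TGATGNAAN. That core, searched on both strands of the 300 bases from 250 before to 50 after the RefSeq start (GRCh38.p14), was found at 15 of 38 ATF4 targets with a promoter in the table (39.5%), beside 4.45% of 27305 genes. The stretches upstream of 4 targets are printed because they hold the core and the gene had an unadjusted p under 0.05 against DMSO. They run 5′ to 3′ on the gene's strand with the match in capitals.
ASNS, chr7:97872418-97872526, minus strand: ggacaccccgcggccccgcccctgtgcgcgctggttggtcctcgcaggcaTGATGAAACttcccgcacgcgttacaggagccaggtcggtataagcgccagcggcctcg
SLC1A5, chr19:46784853-46784961, minus strand: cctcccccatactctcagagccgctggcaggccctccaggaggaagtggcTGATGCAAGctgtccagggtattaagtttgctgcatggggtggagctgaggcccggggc
JDP2, chr14:75427956-75428021, plus strand: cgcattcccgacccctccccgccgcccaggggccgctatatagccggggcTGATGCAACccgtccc
CHAC1, chr15:40953221-40953319, plus strand: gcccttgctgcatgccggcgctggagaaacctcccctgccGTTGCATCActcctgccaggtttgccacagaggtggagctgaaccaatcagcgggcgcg
The first 3 hold the core on the gene's strand, and CHAC1 holds it on the opposite strand. Among these 4, ASNS, SLC1A5 and JDP2, a bZIP repressor read at 22 and 19.2 in DMSO and 5.25 and 16.4 in MS177N1, had negative values with MS177N1, and CHAC1 had a positive one. All 4 were lower in MS177N1 than in MS177, with log2 differences of -1.74, -0.86, -3.38 and -2.81 (largest limma adjusted p = 5.8e-06). These 4 were picked by their p against DMSO, and other targets with the core did not reach it. For ATF3, CEBPG, AARS and IARS the unadjusted p was 0.755, 0.551, 0.75 and 0.637 (limma). A match is a description of the sequence and not evidence of binding.

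Cholesterol synthesis is run by a chain of enzymes that the SREBP factors switch on together when sterol is low. None of 27 tested genes of synthesis and uptake was called against DMSO, and 26 were bounded within 1.5-fold, beside 70.1% of all genes tested. Of the 27, 21 had negative values, beside 50.8% of all genes tested, and the median was -0.10. With C24 the median against the same DMSO libraries was -0.08. Directly between MS177N1 and C24 the median was -0.03, and none was called. Both MS177N1 libraries lay below both DMSO libraries for 17 of the 27, beside 18.7%. At an unadjusted p under 0.05, 11 were lower with MS177N1 than in DMSO, beside 2.89%, and none higher. TM7SF2, a sterol reductase, had the largest difference, at 346 and 373 in DMSO and 257 and 259 in MS177N1 (-0.47, SE 0.11, limma adjusted p = 0.491). SQLE, squalene epoxidase, stood at 719 and 641 in DMSO and 598 and 511 in MS177N1 (-0.30), and FDFT1, squalene synthase, at 2719 and 2826 in DMSO and 2491 and 2465 in MS177N1 (-0.16). FDPS, INSIG1, ACAT2, MSMO1, LSS, HSD17B7 and MVD were also among the 11. The count of 11 was 5 without DMSO replicate 1, 7 without DMSO replicate 2, 7 without MS177N1 replicate 1 and 2 without MS177N1 replicate 2. Against MS177, 18 of the 27 were higher in MS177N1 and none lower, beside 28.6% and 28.8% of all genes tested.

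**Figure D4:**
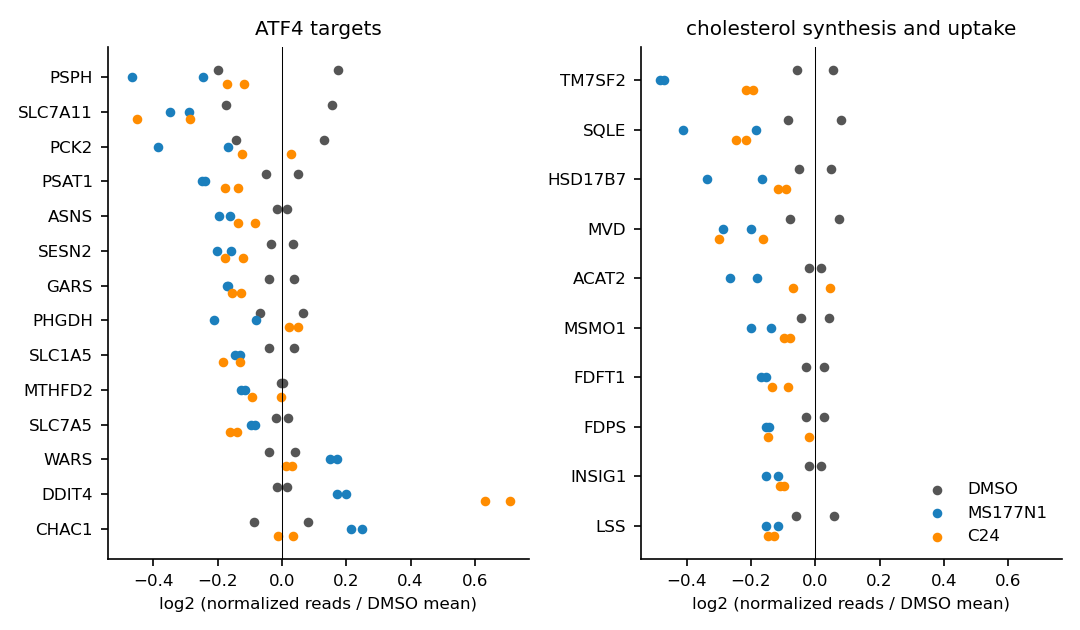
Each point is 1 library, as log2 of normalized reads over the DMSO mean, for ATF4 targets and the cholesterol genes named in the text with an unadjusted p under 0.05 between MS177N1 and DMSO and at least 50 normalized reads in DMSO. None passed the adjusted test between MS177N1 and DMSO, most values in MS177N1 lie between -0.1 and -0.5, and DDIT4 is the gene where C24 lies far from MS177N1.

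Of 22 tested glycolysis genes, 5 were lower at an unadjusted p under 0.05, beside 2.89% of all genes tested. None was called, and the median was -0.02 with 21 bounded within 1.5-fold, beside 70.1% of all genes tested. The 5 were ALDOC, SLC16A3, TPI1, PFKFB4 and LDHA, and ALDOC, an aldolase, stood at 675 and 637 in DMSO and 569 and 504 in MS177N1 (-0.29). Of 32 NRF2 and antioxidant genes, 5 had such a p on the lower side, again beside 2.89%, and the median was -0.06. They were the ferritin chains FTH1 (-0.14) and FTL (-0.10), TALDO1, SLC7A11 and SQSTM1. None was called. The 5 of glycolysis became 3, 2, 2 and 1 when DMSO replicate 1, DMSO replicate 2, MS177N1 replicate 1 or MS177N1 replicate 2 was left out. For the NRF2 genes the count was 3 without DMSO replicate 1, 0 without MS177N1 replicate 1 and 2 without MS177N1 replicate 2. Against MS177, 19 of the 22 glycolysis genes were higher in MS177N1 and 1 lower, beside 28.6% and 28.8% of all genes tested.

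No member of any of the other lists was called against DMSO, as the plot of the lists shows. Of all genes tested, 70.1% were bounded within 1.5-fold, and at least 98.0% of those with 200 or more reads. For 42 p53 targets the median was -0.02 with 37 bounded within 1.5-fold, and CDKN1A, the cell cycle inhibitor p21, stood at 1146 and 1048 in DMSO, 1124 and 1094 in MS177N1 and 5446 and 4877 in MS177. For 35 NF-kB targets 26 were bounded, and 31 were lower in MS177N1 than in MS177, beside 28.8% of all genes tested. Of 47 genes of the unfolded protein response 46 were bounded, of 79 cytosolic ribosomal proteins 73, of 25 heat shock genes 22 and of 37 apoptosis regulators 34. Of 45 interferon-stimulated genes 31 were bounded, with a median of -0.01, and 26 were lower in MS177N1 than in MS177, again beside 28.8%. XAF1, an interferon-induced gene, was among those that could not be bounded, with 2.2 and 10.6 normalized reads in DMSO, 14.7 and 12.7 in MS177N1 and 175 and 165 in MS177. Of 30 MHC genes 28 were bounded, of 31 immediate early genes 23, and of 28 long non-coding RNAs and snoRNA hosts 24. All 31 reference genes, used as steady comparators in expression work, were bounded within 1.5-fold. None of 17 replication-dependent histone genes was; their summed level over the list lay between 338 and 391 normalized reads in the 4 libraries.

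**Figure D5:**
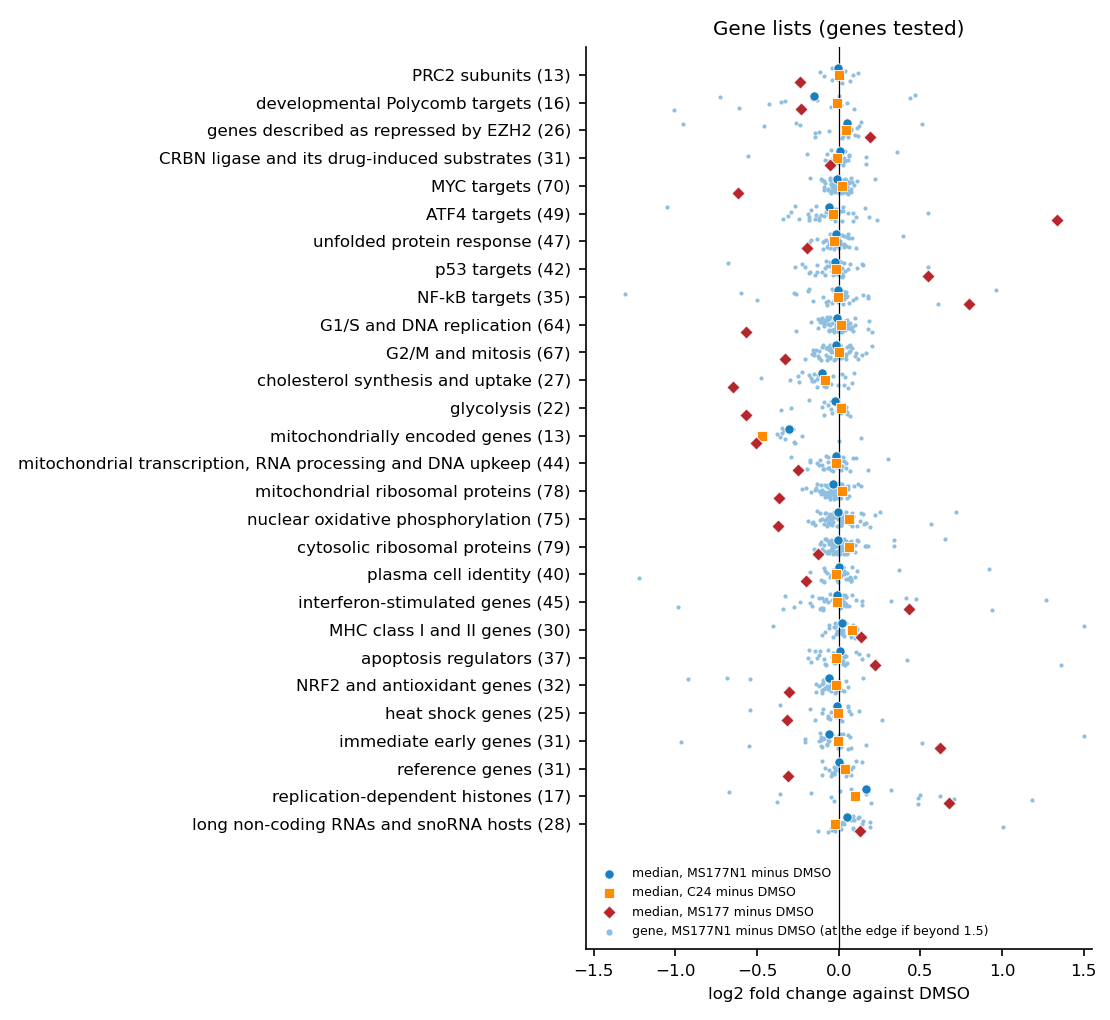
Small points are genes of each list with at least 10 genes tested, as log2 fold change of MS177N1 against DMSO (drawn at the edge beyond 1.5), and large symbols are list medians for MS177N1, C24 and MS177, each against the same DMSO libraries. In the lists drawn, the medians of MS177N1 lie between -0.15 and 0.17 except for the mitochondrially encoded genes at -0.30, and those of MS177 reach from -0.64 to 1.34.

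The member with the largest difference in a list was often a gene with few reads, and none of those named here passed the test. HLA-DQA1, an MHC class II chain, stood at 0 and 6.73 in DMSO and 6.29 and 11.8 in MS177N1, and BCL2L2, a survival factor of the BCL2 family, at 4.4 and 2.88 in DMSO and 11.5 and 10.0 in MS177N1. FCRL5, an Fc receptor-like protein of plasma cells, stood at 7.7 and 8.65 in DMSO and 3.15 and 2.73 in MS177N1. At such levels the intervals were wide, 0.01 to 3.59 on the log2 scale for HLA-DQA1 and -2.49 to 0.05 for FCRL5. Likewise few reads lay behind CXCL9 of the genes repressed by EZH2 (-0.96), CYP1B1 of the NRF2 list (-0.92), KITLG of the p53 targets (-0.68), IKZF2 of the CRBN list (-0.56), ERO1LB of the unfolded protein response (0.39) and HIST1H2AJ of the histones (1.18). SPRY2 of the immediate early genes was at 1.1 and 0 in DMSO and 7.34 and 1.82 in MS177N1, and CXCL8 of the NF-kB list at 1.1 and 1.92 in DMSO with no read in MS177N1, too few for a fold. Better read were DNAJB4, a heat shock co-chaperone (-0.54), CCNE2, a cyclin of S phase entry (-0.26), PFKFB4 of glycolysis (-0.35), MRPL57 of the mitochondrial ribosome (-0.23), TFCP2 of the reference genes (0.14) and AEBP2, an accessory subunit of PRC2 (0.12). Both MS177N1 libraries of DNAJB4 lay below both DMSO libraries.

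Of 11039 genes with at least 50 normalized reads on average, 97 had groups that did not overlap and an unadjusted p under 0.01 without being called. Of the 97, 37 were higher and 60 lower with MS177N1. An unadjusted p under 0.01 is reached by about 0.01 of genes where none differs, so a set of this size is not itself a result. At the looser unadjusted p under 0.05, with no rule on overlap or reads, 2.17% of all genes tested were higher and 2.89% lower. The lowest 8 were ADAMTS3, EPB41L5, LGALS3, DUSP28, TMEM185A, TM7SF2, SPNS2 and C9orf85. LGALS3, the lectin galectin-3, stood at 134 and 141 in DMSO and 78.7 and 107 in MS177N1 (-0.58, limma adjusted p = 0.965). SPNS2, a sphingosine phosphate exporter, stood at 336 and 325 in DMSO and 245 and 233 in MS177N1 (-0.46, adjusted p = 0.5, limma). The smallest adjusted p of the 8 was 0.449, for TMEM185A at 359 and 337 in DMSO and 252 and 234 in MS177N1. The highest 8 were TMEM110-MUSTN1, RP11-982M15.2, ZNF493, LY75-CD302, SLC16A6, RP11-356I2.4, FAM26F and PCBP1-AS1. ZNF493, a zinc finger gene, stood at 64.9 and 61.5 in DMSO and 118 and 103 in MS177N1 (0.79, limma adjusted p = 0.64), and SLC16A6, a monocarboxylate transporter, at 79.2 and 55.8 in DMSO and 99.7 and 115 in MS177N1 (0.68).

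Of these 8, TMEM110-MUSTN1 and LY75-CD302 are read-through transcripts, which join 2 neighbouring genes and share their sequence, and neither passed the test. TMEM110-MUSTN1 was at 67.1 and 70.2 in DMSO and 144 and 115 in MS177N1, while TMEM110 itself was at 587 and 655 in DMSO and 563 and 591 in MS177N1. LY75-CD302 was at 102 and 124 in DMSO and 198 and 186 in MS177N1, with LY75 at 2638 and 2707 in DMSO and 2618 and 2512 in MS177N1. PPAN-P2RY11, named here after its values were seen, had 25 and 55 reads in the MS177N1 libraries and 0 in the other 6. Over the floor of 3 reads per library its MS177N1 mean was at least 12.3-fold above DMSO, but it did not pass (adjusted p = 0.4, limma). PPAN, a factor of ribosome assembly, had 1926 and 1899 in DMSO and 2004 and 1952 in MS177N1. How reads were divided between such overlapping entries is not given in the sources used here, so these values are uncertain.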

How the data were processed

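Total RNA was made into sequencing libraries with a NEBNext Ultra II kit, per the labels' protocols. The submitters' processing notes list DESeq2 1.38.2, Salmon 0.1.19, STAR 2.4.2 and hg19 without saying what each was used for. The deposited table holds normalized log2 values for 16295 genes in 8 libraries, made by the authors on a variance-stabilizing scale, as the values themselves show. Inverting it gave whole reads for 130360 of 130360 values within 0.01. The log2 of normalized reads, with a pseudocount of 1, entered 1 fit of all 4 groups in limma 3.58.1 with its trend and robust options (R 4.3.3, statmod 1.5.0), with Benjamini-Hochberg adjustment in each of the comparisons and a call at an adjusted p under 0.05. A count test had been planned for a table of counts; the deposited unit is log2, so limma was used. A gene was tested if 2 or more libraries had 10 reads, at the median depth, and all libraries together 15; 2131 genes were left out. The median SE of a log2 fold change was 0.107. The script was tested on simulated data.

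Comparisons, lists and members were chosen with earlier results of these data known. Genes were named by rule: all called genes, all mitochondrially encoded genes, EZH2, EZH1, EED, SUZ12, CRBN, IKZF1, IKZF3, IRF4 and MYC, for most lists of 10 or more tested genes the member with the largest difference, the 8 highest and 8 lowest genes not called (at least 50 reads, no overlap, unadjusted p under 0.01), and the 5 narrowest and 5 widest intervals. Other genes were chosen after their values were seen, list members at an unadjusted p under 0.05 among them. Promoters are from RefSeq (GRCh38.p14) and gene overlaps from GENCODE 29, matched by symbol. Intervals are at 95% and floors are 3 reads per library; floors cover counting error only. Alternatives covered scaling, filters, pseudocounts, the deposited values, voom weights, the libraries fitted, a replicate block and leaving out each library. A few members of the cholesterol list are counted but not reported singly here.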

Additional observations from a re-analysis of the deposited data

How the results depend on the processing

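The number of genes called between MS177N1 and DMSO was 5. It was 3 when libraries were scaled by total reads and 3 by reads outside the mitochondrial genome (chosen after seeing the data), 9 with a pseudocount of 5, 8 on the deposited values, 8 with voom weights and 17 with only the groups compared. With the replicate number as a block it was 11, and leaving out 1 library at a time gave 0 to 19. The labels do not say that equal numbers pair libraries, and with 2 pairs the data do not settle it: deviations of same-numbered libraries correlated at -0.063 between DMSO and MS177N1, 0.221 between MS177N1 and C24, 0.0659 between MS177N1 and MS177, and -0.147 to 0.232 between the other groups. MS177N1 against C24 gave 2 calls, 1 with a mean of at least 50 reads or a pseudocount of 5, 28 with only the groups compared, and 0 to 13 without 1 library. MS177N1 against MS177 gave 8131 calls, and between 7321 and 8279 under the alternatives with all libraries, 6661 to 8258 without one. Genes bounded within 1.5-fold of DMSO numbered 9935, and 9849 to 10101 under those alternatives except the deposited values, whose scale narrows differences of low genes, with 13898; without 1 library the number was 9072 to 10010. The median of the mitochondrially encoded genes was -0.30, then -0.30 to -0.28, and -0.35 to -0.23 without 1 library. Leaving out libraries of groups outside a comparison was added after seeing the data. A lone library of a group was assumed to vary like the others. Single fold changes and medians kept their sign. The balance of calls turned to 3 higher and 1 lower against DMSO without DMSO replicate 1, and against C24, from 2 lower, to 20 higher and 8 lower with only the groups compared, 8 and 5 without MS177 replicate 1 and 6 and 5 without MS177 replicate 2.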

Other observations

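RPS29, ATP5I and SNHG9 were low in replicate 2 of both DMSO and MS177 and in no library of MS177N1 or C24. These genes were chosen after their values were seen. RPS29, a ribosomal protein, stood at 6060 and 2886 normalized reads in the DMSO replicates, 6028 and 3402 in those of MS177, 5674 and 7563 in MS177N1 and 7181 and 6689 in C24. ATP5I, a small subunit of ATP synthase, stood at 681 and 325 in DMSO, 615 and 303 in MS177, 695 and 863 in MS177N1 and 794 and 857 in C24. SNHG9, a snoRNA host, stood at 121 and 40.4 in DMSO, 76.1 and 28.1 in MS177, 122 and 166 in MS177N1 and 144 and 117 in C24. Their log2 fold changes of MS177N1 against DMSO, at 0.65, 0.72 and 1.01, did not pass the test.

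PLA2G4B, a phospholipase gene that overlaps a read-through transcript, had no read in DMSO. It stood at 5.25 and 18.2 normalized reads in MS177N1 and 18.8 and 32.1 in C24, and C24 passed the test against DMSO (limma adjusted p = 0.0163) while MS177N1 did not (0.4). A direct test between MS177N1 and C24 gave an adjusted p of 0.997. The widest intervals among genes with at least 50 reads belonged to AC006538.4, CXCR5, RP11-599B13.6, RP4-583P15.14 and RGPD6, in each of which at least 1 library was at or near 0. AC006538.4 had 356 and 306 in DMSO and 0 and 326 in MS177N1, and the chemokine receptor CXCR5 85.8 and 0 in DMSO and 46.2 and 88.2 in MS177N1.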
